A study of Mus musculus with 2 samples.

Results

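The transcripts described here are 10 genes of skeletal muscle, measured in ureters dissected from mouse embryos of strain NMRI at E14.5. They are the regulator Myog, the myosin chains Myh3, Myh8, Myl1 and Mylpf, the troponins Tnnc2, Tnni2 and Tnnt3, the actin Acta1 and the creatine kinase Ckm. Members were all non-control probes that carry one of these names on the array, which gave 17 of 39429 probes and 10 of the 29875 gene names on the array. Two-colour Agilent arrays were used, 2 in number, each with a knockout and a control RNA in different dyes. The knockout is labelled Smad4cKO (UE), with the genotype Pax2-cre/+;Smad4(fl/fl) in the series title and Pax-cre/+;Smad4(fl/fl) in the sample labels. The control is labelled Smad4(fl/?), so its second Smad4 allele and its Cre status are not given. Smad4 encodes the SMAD protein that BMP and TGF-beta signals have in common. Pax2-cre is active in the nephric duct and the epithelia that derive from it, among other sites, so Smad4 is floxed in all cells of the knockout but deleted only where Cre was expressed. Both RNAs of replicate 1 were female and its knockout carried Cy3, whereas both RNAs of replicate 2 were male and its knockout carried Cy5, so sex and dye cannot be told apart. The labels do not say how many embryos went into each RNA or whether these came from separate litters. The p-values therefore concern only these arrays, whose small number limits how precise any value is. Their variance was drawn mostly from all genes tested, with a smaller part from each gene's own spread between the arrays.

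Skeletal muscle forms from somite-derived precursors that withdraw from the cell cycle, fuse into fibres and switch on the sarcomere genes under MyoD-family and MEF2 transcription factors. In the sarcomere, thick filaments of myosin pull on thin filaments of actin, and the troponin complex lets calcium start the contraction. Fetal fibres use embryonic and perinatal myosin heavy chains that are replaced after birth. The wall of the ureter, in contrast, develops smooth muscle, while skeletal muscle belongs to the neighbouring body wall.

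Probe sequences are shown for Myh3, Myh8 and Tnnt3. The Myh3 and Myh8 probes below, both on mm9 chromosome 11, belong to myosin heavy chain genes with partly similar sequence. Over 48 bases aligned without gaps they shared 29 and differed at 19, which are in capitals. Bases outside the alignment are in lower case, as are the shared ones.
Myh3, chr11:66915107-66915166, plus strand: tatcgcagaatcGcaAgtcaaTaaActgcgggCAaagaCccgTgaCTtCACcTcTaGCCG
Myh8, chr11:67121925-67121984, plus strand: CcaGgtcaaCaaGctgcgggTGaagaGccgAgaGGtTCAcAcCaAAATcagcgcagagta
Sharing of signal between myosin transcripts was not tested. The 2 Tnnt3 probes, on mm9 chromosome 7, overlap by the 27 bases in capitals, so they are not separate measurements of that gene. The dimmer one spans 1763 bases of genome for its 60 bases of sequence.
Tnnt3 brighter probe, chr7:149698467-149698526, plus strand: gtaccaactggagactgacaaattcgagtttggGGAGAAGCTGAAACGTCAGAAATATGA
Tnnt3 dimmer probe, chr7:149698500-149700262, plus strand: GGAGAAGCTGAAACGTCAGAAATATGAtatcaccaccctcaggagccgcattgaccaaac

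Transcripts of skeletal muscle were detected in all 4 RNA samples. Of the 17 probes, 11 were kept, and all 4 channels were well above background for each of these, so the filter on dim probes did not select by genotype. They covered 9 of the 10 genes. Intensities below are normalised fluorescence in arbitrary units after an added offset of 50, and are compared only within a probe. Probes with no spot above background had a median of 85.1 and 85.4 in the knockout channels and of 85.6 and 84.9 in the control channels.

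Ckm, which encodes the creatine kinase that buffers ATP in muscle, was the 1 gene not measured above background. Its probe read 101 and 97.4 in knockout ureters, against 90.8 and 94.9 in control ureters, and none of its spots was well above background. The other 5 probes that were not kept belong to Myh8, Myl1 and Mylpf, genes with another probe that was kept. Of the 4 Myh8 probes only the most downstream one was kept, and the others lie 13601, 26401 and 28450 bases upstream of it on mm9. The second Myl1 probe, whose coordinates span 4248 bases, and the more downstream of the 2 Mylpf probes were also dim. Over the 6 dim probes, intensities ran from 78.6 to 116.

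**Figure D1:**
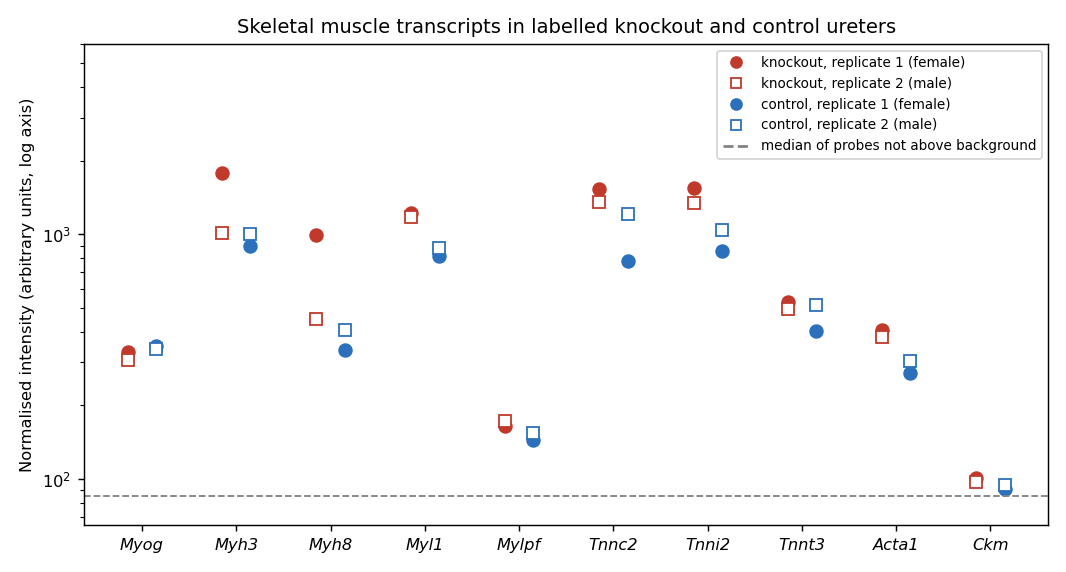
Normalised intensity (arbitrary units, log axis) of each skeletal muscle transcript in the 4 channels, with the knockout left of the control. Filled circles are replicate 1, open squares are replicate 2, and points compare only within a gene. Myh3 and Myh8 stand apart in the knockout of replicate 1, and Ckm lies near the dashed line at the median of probes not above background.

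Positive log2 ratios mean higher in labelled knockout, by the dyes in the labels. The authors' deposited table, read in the order of its titles, runs the opposite way: there the signed fold of Myh8 is -3.91 on replicate 1 and -1.10 on replicate 2. Of the 9 genes measured, 8 had a ratio above 0 on replicate 1 and 7 on replicate 2. Of all 20104 genes tested, these were 9702 and 9822. On both arrays 7 of 9 were above 0, beside 21.7% of all 20104 genes tested. The median ratio of the 9 was 0.59 on replicate 1 and 0.15 on replicate 2, where the medians of all genes were -0.00928 and -0.00339. None of the 9 passed limma's test at an adjusted p of 0.05, which 0.328% of all genes passed. At an unadjusted p of 0.05 there were 6 of 9, beside 4.55% of all genes. Such a p can be low where the arrays differ, since its variance was drawn mostly from all genes. Myh8, at 1.56 on replicate 1 and 0.15 on replicate 2, had an unadjusted limma p of 0.00667. At least 1.5-fold higher in labelled knockout were 5 of 9 on replicate 1, beside 0.627% of all genes, and 0 of 9 on replicate 2, beside 0.92%. Both knockout channels lay above both control channels for 7 of the 9 genes, beside 13.9% of all genes. In the opposite direction, 24.6% of all genes were below 0 on both arrays, 2.01% were at least 1.5-fold lower in labelled knockout on replicate 1 and 0.239% on replicate 2, and 15.3% had both knockout channels below both control channels. Those are the shares to set beside the same counts of members if the direction of the titles in the authors' deposited table is taken. In RNA of whole ureters, fewer cells of a type and less RNA per cell cannot be told apart.

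Myog is the MyoD-family factor that commits precursors to fibre formation. Its intensity was 330 and 307 in knockout ureters and 350 and 341 in control ureters. Both control channels were thus the higher ones, by a small margin. The log2 ratio was -0.08 on replicate 1 and -0.15 on replicate 2, with single spots from -0.15 to 0.04 and from -0.28 to -0.07. The mean was -0.12 ± 0.05 (SD, n = 2 arrays; limma adjusted p = 1.00). Myog was the 1 member below 0 on both arrays.

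Myh3 and Myh8 encode the embryonic and the perinatal myosin heavy chain, the motor proteins of fetal fibres. Myh8 had an intensity of 994 in the knockout and 337 in the control of replicate 1, and of 451 in the knockout and 408 in the control of replicate 2. The knockout of replicate 1 stood 2.20-fold above that of replicate 2, and the other 3 channels lay close together. Its log2 ratio was 1.56 on replicate 1, a 2.95-fold difference, and 0.15 on replicate 2, a 1.11-fold difference. All 8 spots were above 0, from 1.43 to 1.70 and from 0.05 to 0.24. The mean of 0.85 ± 1.00 (SD, n = 2 arrays) did not pass (limma adjusted p = 0.475). Over 11 alternative settings its adjusted p ran from 0.0401, with a variance prior that follows intensity, to 1. Without replicate 1 the ratio of Myh8 is 0.15. The reading of Myh8 rests on the only one of its probes that was kept. Its dim upstream probes, near background, read -0.05, -0.02 and -0.03 on replicate 1.

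Myh3 had the same order of channels. Its brighter probe read 1782 in the knockout and 897 in the control of replicate 1, and 1009 and 1004 on replicate 2. Its second probe, printed above, read 1254 and 614 on replicate 1, and 687 and 666 on replicate 2. The 2 probes gave log2 ratios of 0.99 and 1.03 on replicate 1 and of 0.00685 and 0.05 on replicate 2, and the mean of the brighter one was 0.50 ± 0.70 (SD, n = 2 arrays; limma adjusted p = 0.965). For Myh3, then, replicate 1 showed a 1.99-fold difference by the brighter probe, and replicate 2 a difference within the scatter of its spots around 0.

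The light chains sit on the neck of the myosin motor. Myl1, an essential light chain of fast fibres, read 1223 and 1175 in knockout ureters and 815 and 883 in control ureters. The groups did not overlap, and the 2 samples of each genotype were close. Its log2 ratios were 0.59 on replicate 1 and 0.41 on replicate 2, and their mean was 0.50 ± 0.12 (SD, n = 2 arrays; limma adjusted p = 0.256). Mylpf, the regulatory light chain of fast fibres, read 165 and 172 in knockout ureters and 144 and 155 in control ureters. These levels were low, at 1.98 to 3.88 times the local background. The more downstream Mylpf probe, which was not kept, read 89.2 and 92.2 in knockout ureters and 90.7 and 89.2 in control ureters. The reading of Mylpf thus rests on 1 dim probe. The mean log2 ratio of Mylpf was 0.17 ± 0.03 (SD, n = 2 arrays; limma adjusted p = 1.00), and 0.35 with Agilent's processed signals, which carry no offset.

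The 3 troponins are those of fast fibres: Tnnc2 binds calcium, Tnni2 holds the filament off in its absence, and Tnnt3 ties the complex to tropomyosin. Tnni2 read 1547 and 1350 in knockout ureters, against 858 and 1043 in control ureters, with no overlap. Its log2 ratio was 0.85 on replicate 1 and 0.37 on replicate 2, and the mean of 0.61 ± 0.34 (SD, n = 2 arrays; limma adjusted p = 0.202) was the second highest of the 9 genes after that of Myh8. Tnnc2 read 1527 and 1353 in knockout ureters, against 778 and 1217 in control ureters. Here the control of replicate 1 was the channel that stood apart: the control of replicate 2 was 1.56-fold above it, whereas the knockouts differed 1.13-fold. The log2 ratio of Tnnc2 was accordingly 0.97 on replicate 1 and 0.15 on replicate 2 (mean 0.56 ± 0.58, SD, n = 2 arrays; limma adjusted p = 0.566).

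Tnnt3 went in opposite directions on the 2 arrays, as did 10788 of all 20104 genes tested. Its brighter probe read 528 and 496 in knockout ureters, against 402 and 514 in control ureters, so the groups overlapped. The log2 ratios of this probe were 0.40 and -0.05, and those of the dimmer, overlapping probe 0.34 and -0.12. Every spot of both probes was above 0 on replicate 1 and below 0 on replicate 2. The mean over arrays was 0.17 ± 0.32 (SD, n = 2 arrays; limma adjusted p = 1.00).

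Acta1 encodes the alpha-actin of skeletal thin filaments. It read 405 and 380 in knockout ureters, against 271 and 305 in control ureters, with no overlap. The log2 ratio was 0.58 on replicate 1 and 0.32 on replicate 2 (mean 0.45 ± 0.19, SD, n = 2 arrays; limma adjusted p = 0.409), and 3 spots were used on replicate 2 after 1 was marked as an outlier. Actin coding sequences are very similar between genes, and signal from the smooth and cardiac actins at this probe was not tested. Their own probes read a log2 ratio of 0.08 on replicate 1 and 0.41 on replicate 2 for Acta2, of -0.37 and 0.37 for Actg2 and of -0.21 and 0.25 for Actc1.

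**Figure D2:**
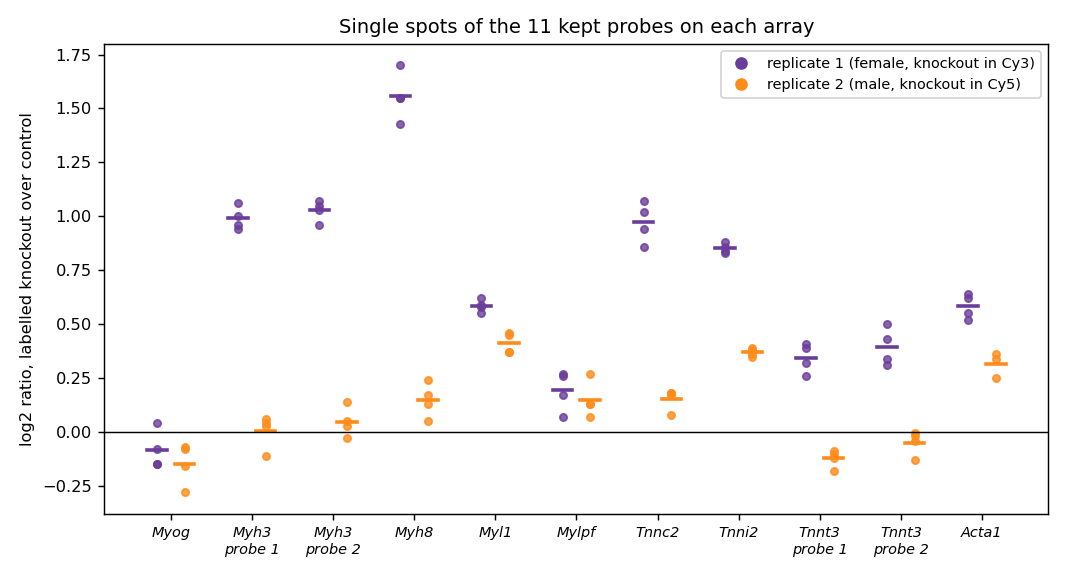
Log2 ratio of labelled knockout over control for each spot of the 11 kept probes, with a bar at the mean of the spots. For Myh3 probe 1 and for Tnnt3 probe 2 is the brighter one. On replicate 1 the spots of Myh8 lie between 1.43 and 1.70, while on replicate 2 no member exceeds 0.46 and every spot of Tnnt3 and Myog lies below 0.

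Across the 9 genes, the channel with the highest intensity was the knockout of replicate 1 for 7, and the lowest was the control of replicate 1 for 8. The ratio was higher on replicate 1 than on replicate 2 for 9 of 9, beside 49.3% of all genes tested. The summed intensity of the 9 genes was 8501 in the knockout and 4852 in the control of replicate 1, and 6693 and 5870 on replicate 2. Each sum is over the same probes, and the brighter ones weigh most in it. Each gene's own difference between the arrays ran from 0.04 for Mylpf to 1.41 for Myh8 on the log2 scale. With 1 array per sex and dye order, that difference was not tested.

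**Figure D3:**
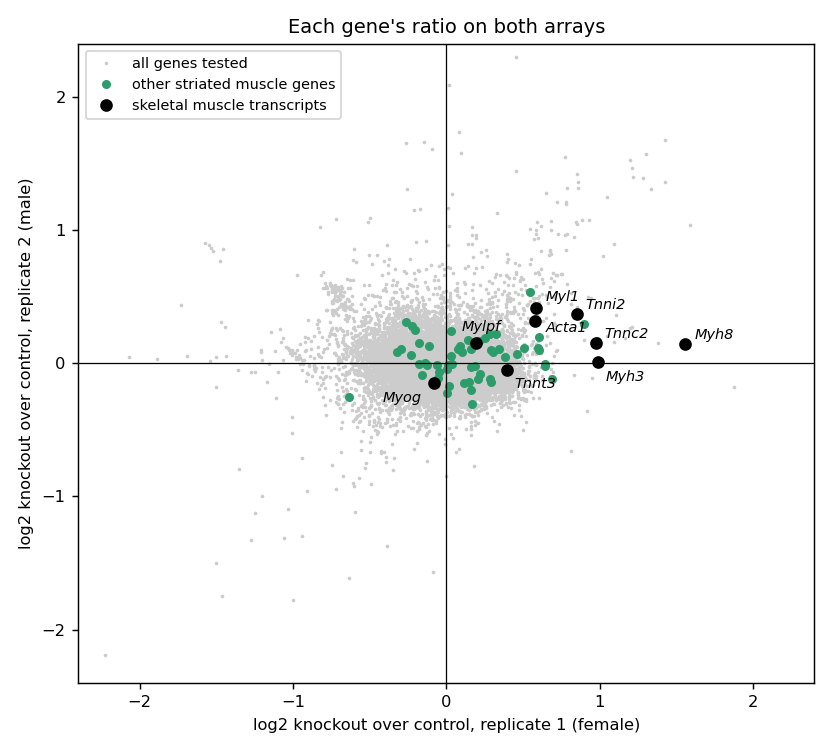
Log2 ratio of knockout over control on replicate 1 (horizontal) and replicate 2 (vertical) for the 20104 genes tested in grey, with the 9 measured skeletal muscle transcripts in black and 57 other striated muscle genes in green. The black points spread from -0.08 to 1.56 along replicate 1 and only from -0.15 to 0.41 along replicate 2.

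Promoters are shown for the 2 members that hold a MEF2 or a CArG box, since both boxes are classical control elements of muscle genes. Windows of 250 bases upstream of the start site (RefSeq, GRCm38.p6) were found for 8 of the 10 genes and searched on both strands. A MEF2 box occurred in Myh8 alone of the 8, beside 2.92% of 32851 promoters. A CArG box, the site of serum response factor, occurred in Acta1 alone, beside 1.47%. The E-box CAGCTG was in 4 of the 8 (Acta1, Ckm, Myl1 and Mylpf), beside 13.0% of promoters. The matched box is in capitals, at bases 99 to 90 before the start of Myh8 and 73 to 64 before that of Acta1.
Myh8, chr11:67276874-67277123, plus strand: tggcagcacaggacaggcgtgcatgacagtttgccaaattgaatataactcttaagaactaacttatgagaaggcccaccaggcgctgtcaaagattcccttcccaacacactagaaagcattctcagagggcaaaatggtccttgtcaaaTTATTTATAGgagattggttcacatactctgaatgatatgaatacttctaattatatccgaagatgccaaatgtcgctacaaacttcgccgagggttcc
Acta1, chr8:123894776-123895025, minus strand: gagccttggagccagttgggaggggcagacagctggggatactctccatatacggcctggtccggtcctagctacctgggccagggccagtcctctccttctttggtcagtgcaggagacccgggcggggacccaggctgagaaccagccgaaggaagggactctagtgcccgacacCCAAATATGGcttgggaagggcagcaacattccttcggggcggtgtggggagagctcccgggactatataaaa
These are matches of letters and no evidence of binding in the ureter.

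Beyond the 10 genes, 85 further genes of striated muscle were grouped by role, and 57 of them were measured. None passed in limma, beside 0.328% of all genes tested, and 9 had an unadjusted limma p under 0.05, beside 4.55%. On both arrays 23 were above 0, beside 21.7% of all genes, and 7 below 0, beside 24.6%. Opposite signs were read for 27, beside 10788 of all 20104 genes tested. Their median log2 ratio was 0.14 on replicate 1 and 0.07 on replicate 2. Their summed intensity was 74954 in the knockout and 76744 in the control of replicate 1, and 76212 and 72276 on replicate 2. On replicate 1 this sum, in which bright genes weigh most, thus runs against the median. On replicate 1, 8 of the 57 were at least 1.5-fold higher in labelled knockout, beside 0.627% of all genes. On replicate 2 none was, beside 0.92%.

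Of 11 regulators of muscle precursors, 7 were measured, with medians of -0.06 on replicate 1 and -0.01 on replicate 2. None of the 7 was above 0 on both arrays, beside 21.7% of all genes. Pax3, a factor of migrating precursors, read -0.18 on replicate 1 and -0.00222 on replicate 2, Lbx1, which acts in the same cells, -0.05 and -0.07, and the histone methyltransferase gene Smyd1 0.22 and -0.08. Pax7, Myf5 and Myf6 had no probe above background. Of 11 genes of fibre fusion and the nerve-muscle synapse, 9 were measured, with medians of -0.14 and 0.00479. Mymx and Mymk encode the pair of membrane proteins that fuse myoblasts. Mymx read 745 and 761 in knockout ureters, against 1159 and 904 in control ureters, a mean log2 ratio of -0.44 ± 0.27 (SD, n = 2 arrays; limma adjusted p = 0.503). Mymk read -0.32 on replicate 1 and 0.08 on replicate 2, and Chrnd, a subunit of the acetylcholine receptor, 0.25 and 0.19.

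Thick filament genes lay above 0 on most readings. Of 13, 9 were measured, with medians of 0.29 on replicate 1 and 0.10 on replicate 2. Above 0 were 9 of 9 on replicate 1 and 7 on replicate 2, beside 9702 and 9822 of all 20104 genes. Myh7, the myosin heavy chain of slow fibres and heart, read 729 and 478 in knockout ureters and 370 and 424 in control ureters. As for Myh3 and Myh8, the knockout of replicate 1 was the high channel, and the log2 ratios were 0.98 and 0.17 (mean 0.58 ± 0.57, SD, n = 2 arrays; limma adjusted p = 0.505). Myl4, a light chain of fetal muscle and atrium, read 0.60 on replicate 1 and 0.10 on replicate 2, and Myom2, a cross-linker of the M-band, 0.64 and -0.00222. The adult fast myosin genes Myh1, Myh2 and Myh4 had no probe above background.

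The remaining groups were mixed. Of 10 thin filament genes 9 were measured (medians 0.12 on replicate 1 and 0.08 on replicate 2). Neb, the giant ruler protein of the thin filament, read 0.60 and 0.11, the alpha-actinin gene Actn2 0.69 and -0.12, and the slow troponin I gene Tnni1 0.30 and 0.09. Of 16 genes of the Z-disc and its scaffold 7 were measured (medians 0.03 and 0.13), with the titin gene Ttn at 0.61 and 0.20, its cap protein gene Tcap at 0.33 and 0.22 and the small heat shock protein gene Cryab at 0.03 and 0.24. Klhl40, Klhl41, Xirp1 and Xirp2 were among the 9 of this group that were not above background.

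Of 14 genes of calcium release 9 were measured (medians 0.14 on replicate 1 and -0.02 on replicate 2). Sln encodes sarcolipin, an inhibitor of the calcium pump that is also found in atrium. It read 397 and 332 in knockout ureters, against 213 and 270 in control ureters, with a mean log2 ratio of 0.60 ± 0.42 (SD, n = 2 arrays; limma adjusted p = 0.295). Sln passed in 3 of 11 alternatives, with an adjusted p of 0.0335 on Agilent's processed signals, 0.0293 on the authors' deposited values and 0.0229 with a variance prior that follows intensity, and the highest adjusted p was 1. Cav3, the caveolin of muscle, read 0.64 and -0.02, and the calcium store gene Casq2 0.34 and 0.11. Of 10 genes of muscle metabolism 7 were measured (medians 0.28 and 0.07). Cox8b, a cytochrome oxidase subunit of muscle and brown fat, gave nearly the same ratio on both arrays. It read 619 and 687 in knockout ureters, against 425 and 474 in control ureters, and its log2 ratio was 0.54 on each array (SD 0.00545; limma adjusted p = 0.176). Cox6a2 read 0.51 and 0.12 and the phosphoglycerate mutase gene Pgam2 0.46 and 0.07.

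**Figure D4:**
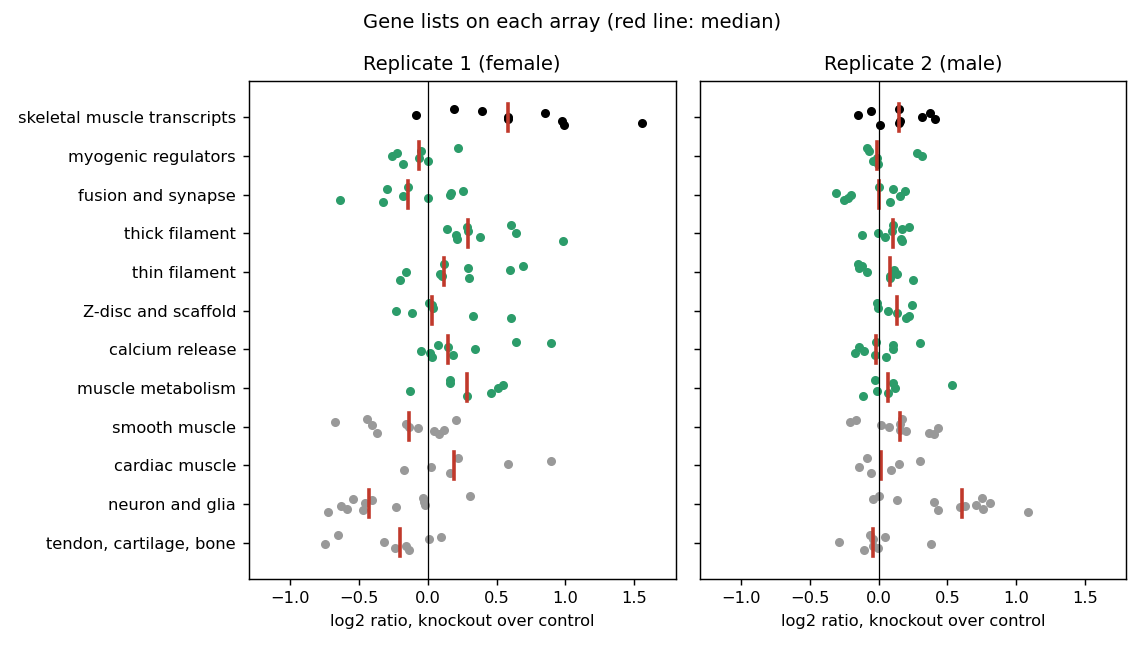
Log2 ratio of knockout over control for the measured genes of each list on replicate 1 (left) and replicate 2 (right), with skeletal muscle transcripts in black, other striated muscle lists in green, other tissues in grey and each median as a red line. On replicate 1 the skeletal muscle transcripts have a median of 0.59 and the neuron and glia list one of -0.43, and on replicate 2 these are 0.15 and 0.61.

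Markers of other tissues were read on the same arrays. Of 12 smooth muscle genes 11 were measured, none passed, and the medians were -0.14 on replicate 1 and 0.15 on replicate 2. Their summed intensity was 115719 in the knockout and 108662 in the control of replicate 1, and 101687 and 105230 on replicate 2. These sums run against the medians on both arrays because of 1 bright gene, Myl9: the other 10 genes summed to 37417 in the knockout and 40626 in the control of replicate 1, and to 35947 and 31719 on replicate 2. Of 10 heart muscle genes 6 were measured, with medians of 0.19 and 0.02, and none passed. This list is not separate from those above: Sln is also in the calcium release list and Smyd1 among the regulators. Heart's Nkx2-5, Myl7, Nppb and Mybpc3 had no probe above background, while Tnnt2, which embryonic skeletal muscle also expresses, read 0.58 and 0.15. The labelled tissue carried its markers: all 12 urothelial genes listed were measured, and 6 passed, beside 0.328% of all genes. These 6 were all higher in labelled knockout.

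Other lists differed between the arrays as well, in other directions. The neuron and glia list (12 of 13 measured) had a median of -0.43 on replicate 1 and of 0.61 on replicate 2. Of the 12, 10 had opposite signs, beside 10788 of all 20104 genes tested. The summed intensity of the list was 111062 in the knockout and 157114 in the control of replicate 1, and 132167 and 127528 on replicate 2. Tendon, cartilage and bone (8 of 11 measured) had medians of -0.20 and -0.04, with summed intensities of 22496 and 29398 on replicate 1 and 22472 and 24665 on replicate 2. Of 8 liver and blood genes 7 were measured, with medians of 0.22 and 0.34, and 1 passed, beside 0.328% of all genes. The 1 that passed was Afp, the fetal serum protein alpha-fetoprotein, which read 4135 and 8667 in knockout ureters, against 1376 and 4213 in control ureters. Its log2 ratios of 1.59 on replicate 1 and 1.04 on replicate 2 were above 0 on both arrays, as for 7 of the 9 skeletal muscle genes (mean 1.31 ± 0.39, SD, n = 2 arrays; limma adjusted p = 0.00447). Ttr, the carrier protein transthyretin, read 0.70 and 0.68 (limma adjusted p = 0.0502), whereas the serum albumin gene Alb read -0.09 and 1.61 and the embryonic globin gene Hbb-bh1 -0.29 and -0.30. The lists of fat, ureteric mesenchyme, gonad and adrenal, endothelium and macrophages had medians between -0.30 and 0.08 on either array, and none of their genes passed. The part of other tissues, sex or dye in the ratios of the skeletal muscle genes was not tested.

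Outside the muscle lists, the 5 named genes nearest to the mean profile of the 9 members over the 4 channels were Pdgfd, Cfhr2, Vps35, Cntn6 and Anxa3. Their Euclidean distances were 0.02 for Pdgfd, 0.08 for Cfhr2 and 0.10 for each of the others, while the members themselves lay 0.15 to 0.75 from their own mean. Pdgfd, a growth factor gene, read 0.65 on replicate 1 and 0.14 on replicate 2. A likeness over 4 channels is a description only.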

How the data were processed

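Each spot's intensity is a mean signal with a median local background for either channel, deposited as scanner output (per the file headers, Feature Extraction version 10.7.3.1). A processed intensity and a log10 value, red over green, stand beside them per the file headers; the log10 value was not used. A further table that the authors deposited gives a score per probe, a fold with a sign; the sources used here do not describe its scaling, and it served as an alternative only.

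Background was corrected by normexp (offset 50, which shrinks the ratios of dim probes), followed by loess within arrays with control spots at weight 0. Outlier spots were left out, 3.52% in replicate 1 and 3.66% in replicate 2. Saturation was not reached, and the mean over the 4 spots stood for a probe. On replicate 1, 69.0% of probe spots were well above background in the knockout and 67.4% in the control, and on replicate 2, 66.6% and 68.5%. Probes were kept where at least 2 spots per array exceeded background clearly, on both arrays, in 1 genotype or more (26522 of 39429 probes), and a gene was its brightest kept probe. Channel intensities are after Aquantile scaling, which leaves ratios as they are. Ratios were turned to knockout over control by the dyes in the labels and tested against 0 with limma 3.58.1 (R 4.3.3), with p-values adjusted by Benjamini-Hochberg for 20104 genes. Only 1 residual degree of freedom was left, beside a variance prior worth 9.21. The limma step alone was tested on ratios simulated from the fitted prior, with known folds planted. That simulation did not cover background correction, loess, the averaging of spots or the filter. The number of calls is uncertain and varied with the processing, as the closing section shows.

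Each ratio pairs both channels of 1 array, and the alternative without pairing is given in the closing section. The 10 genes and all lists were chosen with earlier results of these data known. From each list of other striated muscle genes, the text names any that passed and up to 3 with the largest absolute mean. It also names the 5 genes with the nearest profile; other genes were chosen after their values were seen. Names were updated through RefSeq (GRCm38.p6) and probe coordinates are the array's, on mm9. Plots were drawn with matplotlib 3.10.9.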

Additional observations from a re-analysis of the deposited data

Results flagged for a closer look

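Tnnt3 is set apart because its ratio lay above 0 on the female array and below 0 on the male array, in every spot of both of its probes. Opposite signs between the arrays were also read for 10788 of all 20104 genes tested. On the male array the brighter Tnnt3 probe read only -0.05. The difference of the log2 ratio, female array minus male array, was 0.45 for the brighter probe and 0.46 for the probe that overlaps it. With 1 array per sex this difference was not tested, and sex and dye order changed together.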

How the results depend on the processing

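The number of genes called over the whole table, 66 as reported, was 115 with no background correction, 131 when the offset was 0, 194 on the signals processed by Agilent's software, 191 with the authors' deposited values, 156 with a variance prior that follows intensity, 26 with the 4 channels unpaired (no replicate block), and 0 both with median centring in place of loess and with no filter on dim probes (347 and 1097 genes with an unadjusted p under 0.05 in limma). The cause was not tested. Of the skeletal muscle transcripts, 0 of 9 passed as reported and 1, Myh8, with the prior that follows intensity. Of the other striated muscle genes, 1, Sln, passed with that prior, on those processed signals (mean log2 ratio 0.87, against 0.60 as reported) and on the values the authors deposited (0.87). The median of the skeletal muscle transcripts was 0.15 without replicate 1 and 0.59 without replicate 2, and that of the other striated muscle genes 0.07 and 0.14. A single array allows no test, so no calls were counted there. Each of the 9 genes kept its direction in the 11 alternatives that use both arrays. Aquantile scaling, the prior that follows intensity and the 4 unpaired channels leave the mean ratio as it is, so no direction could change there. Changes of the filter also gave the same means for these genes. For 1 of the 11, the authors' deposited values, the sign was turned to the dyes beforehand, and as titled it runs the opposite way. Over the alternatives Myh8 lay between 0.85 and 1.05, Tnni2 between 0.61 and 0.66 and Mylpf between 0.16 and 0.35. Tnnt3 was -0.05 without replicate 1 and 0.40 without replicate 2. Low signal over background limits Mylpf and Ckm. Low intensity also limits other named genes, among them Actn2, Casq2, Chrnd, Pax3 and Lbx1. Actn2 read 174 and 119 in knockout ureters and 108 and 129 in control ureters, and Casq2 173 and 146 against 136 and 135.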

Other observations

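In the authors' deposited table, which by the dyes runs as control over knockout, Myh3 stood at -2.07 on replicate 1 and -1.03 on replicate 2 by its brighter probe, Tnnc2 at -2.11 and -1.09, Tnni2 at -1.89 and -1.27, and Acta1 at -1.79 and -1.3. Ckm, the second Myl1 probe, the downstream Mylpf probe and 2 of the dim Myh8 probes stood at exactly 1 on both arrays in the authors' deposited table.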
